A study of Mus musculus with 64 samples.

Results

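The 10 genes described here are the points at which the hormones of hunger and satiety reach the brain. They comprise the receptors for leptin (Lepr), insulin (Insr), ghrelin (Ghsr), glucagon-like peptide 1 (Glp1r), glucose-dependent insulinotropic polypeptide (Gipr) and calcitonin (Calcr), the Y receptors Npy1r, Npy2r and Npy5r for neuropeptide Y and peptide YY, and Socs3, which is not a receptor but an intracellular inhibitor of leptin receptor signaling. They were chosen by symbol, as the rows of the count table whose identifier maps to these names. The rule uses no measured value, but the list was drawn up with earlier results of these data known. Each symbol matched 1 row, giving 10 of the 55401 genes in the table, and all 10 passed the filter on low counts that left 18971 genes for testing. The RNA came from 32 chow-fed male C57BL/6J mice, housed in groups. Each received 1 intraperitoneal treatment injection, at 10 weeks of age, of psilocybin at 3 mg/kg or of isotonic saline. The paper's general methods also describe saline sham injections on the 3 days before a study began, with only the head-twitch mice exempted. Mice were killed 3 h or 4 weeks after injection, and each gave a sample of prefrontal cortex (PFC) and of whole hypothalamus, which makes 8 groups of 8 samples. Both time points carry an injection, no group was left uninjected, and the mice of the later time point were older at death, so that time since injection and age cannot be told apart. The replicate number is the cage number in the labels.

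Leptin from fat and insulin from the pancreas report energy stores, ghrelin from the stomach stimulates eating, and glucagon-like peptide 1, peptide YY and amylin, which acts on the calcitonin receptor with an accessory RAMP protein, bring meals to an end. In the hypothalamus these signals meet on neurons of the arcuate nucleus, where leptin activates the kinase Jak2 and the transcription factor Stat3. Stat3 induces Socs3, which then shuts the receptor down. Neuropeptide Y drives feeding largely through the Y1 and Y5 receptors, while the Y2 receptor sits on the neurons that release it and lowers that release. The PFC is not a classical target of most of these hormones, but cortical neurons carry insulin and Y1 receptors in abundance.

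Libraries with at least 1000000 counted reads were used, which kept 62 of 64, with 8061033 to 70361839 counted reads each. Left out were the library of saline replicate 2 of the hypothalamus at 3 h (211111 reads) and of psilocybin replicate 3 of the PFC at 4 weeks (200066 reads). The tissue labels were checked against defining markers. The summed level of 12 hypothalamic markers was 439 to 2922 CPM (counts per 1000000 counted reads, scaled by the TMM method) in the hypothalamus and 1.25 to 29.0 CPM in the PFC, and that of 8 cortical excitatory markers was 123 to 255 and 1458 to 2073 CPM. Not every list was specific to the hypothalamus. The sum of 6 arcuate markers, Npy among them, had medians of 72.8 CPM in the hypothalamus and 84.8 CPM in the PFC, with no Kiss1 read in either region. The sum of 6 thalamic markers had medians of 518 CPM in the hypothalamus and 132 CPM in the PFC. Some libraries stood apart. PFC saline replicate 3 at 4 weeks, the deepest, held the most hypothalamic marker RNA of any PFC library (29.0 CPM, all 12 markers above 0, against at most 13.3 CPM elsewhere). Hypothalamus psilocybin replicate 5 at 4 weeks was led by Oxt (1201 CPM) and Avp (1121 CPM) and had a quality weight of 0.0276 in the weighted fit. Hypothalamus saline replicate 3 at 4 weeks carried 1232 CPM of 5 choroid plexus markers against at most 248 CPM in the other hypothalamic libraries, and hypothalamus psilocybin replicate 3 at 4 weeks had those 248 CPM. An alternative left out these 4 libraries together.

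The first question was where the 10 genes are expressed. Hypothalamus and PFC differed in 7 of 10 members by edgeR's quasi-likelihood test at an adjusted p under 0.05 (Benjamini-Hochberg over all 18971 genes), 4 higher and 3 lower in the hypothalamus, against 76.2% of all genes called in this comparison, so that the count itself is near the background. The size of the differences set members apart from each other. Calcr, Ghsr, Glp1r and Npy2r were higher in the hypothalamus with no overlap of the 2 regions. Lepr, Npy1r and Gipr were lower, and Insr, Npy5r and Socs3 did not pass the test. Overlap was examined for the members only, so the share of all genes without overlap is not known here. Whole tissue was sequenced, so fewer cells of a type and less RNA per cell cannot be told apart, and the 2 regions were extracted in separate pools (A and B, C and D), so that region and pool cannot be told apart either.

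**Figure D1:**
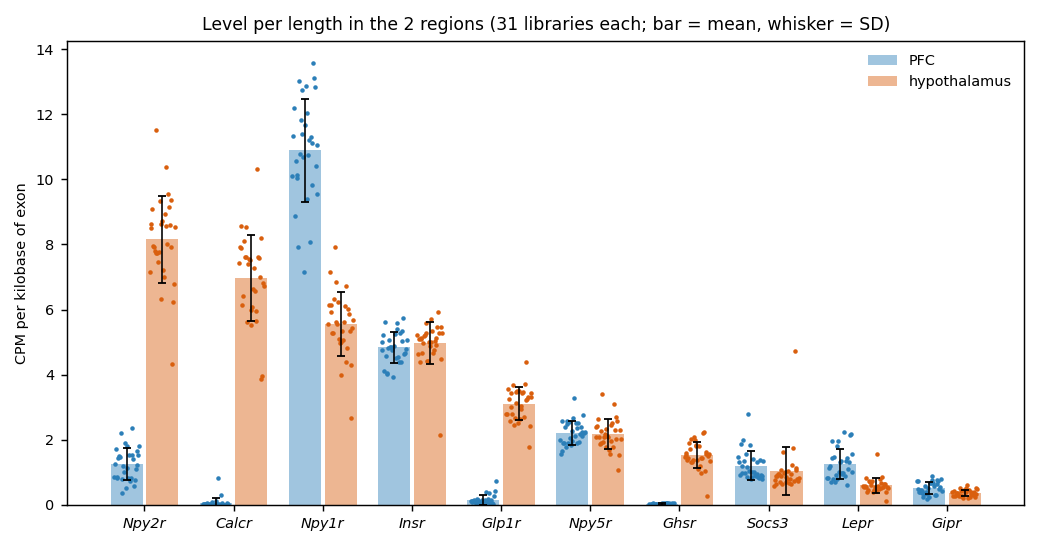
Level of each gene per length (y axis, CPM per kilobase of exon) in the PFC (blue) and the hypothalamus (orange), genes ordered by their hypothalamic mean. Points are the 31 libraries of a region, bars their mean and whiskers the SD. Npy2r and Calcr lead in the hypothalamus with 8.16 and 6.97 CPM per kilobase, Npy1r leads in the PFC with 10.9, and Insr is nearly level between the regions (4.96 and 4.84).

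Calcr (ENSMUSG00000023964.15, GRCm38 chr6:3685680-3764714, minus strand) encodes the calcitonin receptor, the core of the amylin receptor. Its level in the hypothalamus was 15.1 CPM at the lowest, 28.5 at the median and 40.3 at the highest over 31 libraries, and in the PFC 0, 0.0466 and 3.18 CPM. Every hypothalamic library lay above every PFC library, and 14 of 31 PFC libraries held no Calcr read, for which a floor of 3 counts per library corresponds to 0.114 to 0.317 CPM. The fitted difference was 7.61 on the log2 scale (standard error 0.25, adjusted p = 4.78e-35 from edgeR), a fold of 196 with a 95% interval from 139 to 276. The PFC level lay near that floor, and the log2 difference within single conditions ran from 5.16 in saline mice at 4 weeks, the group that holds the PFC library with hypothalamic markers, to 8.94 in psilocybin-treated mice at 4 weeks.

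Ghsr (ENSMUSG00000051136.1, chr3:27371351-27378010, plus strand) encodes the receptor through which ghrelin stimulates eating. It had 1.25, 6.68 and 9.91 CPM (lowest, median, highest) in the hypothalamus and 0, 0.0880 and 0.307 CPM in the PFC. The regions did not overlap, although the lowest hypothalamic library, the one led by Oxt and Avp, lay far under the rest. The fitted fold was 58.3 (95% interval 44.2 to 76.9, adjusted p = 3.24e-35 from edgeR), and 10 of 31 PFC libraries held no read. For these a floor of 3 counts corresponds to 0.119 to 0.317 CPM, so the PFC median lay under the floor. Within single conditions the fold ran from 42.3 in saline mice at 4 weeks to 82.5 in psilocybin-treated mice at 3 h.

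Glp1r (ENSMUSG00000024027.8, chr17:30901817-30937567, plus strand), the receptor for glucagon-like peptide 1, had 10.4, 18.7 and 25.4 CPM in the hypothalamus and 0, 0.592 and 4.30 CPM in the PFC. All 31 hypothalamic libraries were above the highest PFC library, and the fold was 21.4 (95% interval 16.5 to 27.6, adjusted p = 8.74e-30 from edgeR). Gipr (ENSMUSG00000030406.7, chr7:19156061-19166127, minus strand), the receptor of the other incretin hormone, went the other way at low levels, with 0.676, 1.25 and 2.07 CPM in the hypothalamus and 0.586, 1.69 and 3.08 CPM in the PFC. These ranges overlapped fully, the fold was 0.72 (95% interval 0.62 to 0.84, adjusted p = 7.76e-05 from edgeR), and 22 of 30 mice with both regions were lower in the hypothalamus. The log2 difference of Gipr was -0.48 in saline mice and -0.04 in psilocybin-treated mice at 3 h, and -0.63 and -0.73 at 4 weeks, and with pools B and D only it was -0.34 (adjusted p = 0.0872), no longer a call.

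Lepr (ENSMUSG00000057722.17, chr4:101717404-101815352, plus strand) encodes all forms of the leptin receptor, which gene counts do not separate, so that the signaling form cannot be read from them. It had 0.921, 3.95 and 10.9 CPM in the hypothalamus and 4.23, 7.94 and 15.8 CPM in the PFC. The hypothalamus was lower in 28 of 30 mice, with a fold of 0.48 (95% interval 0.40 to 0.57, adjusted p = 1.06e-11 from edgeR). The hypothalamic high of 10.9 CPM came from the library with the choroid plexus markers and the low of 0.921 CPM from the one led by Oxt and Avp. Within the PFC, pool D (cages 5 to 8) averaged 10.5 CPM and pool C (cages 1 to 4) 7.11 CPM. The log2 difference of Lepr, -1.07 in the main setting, was -0.63 within pools A and C and -1.49 within pools B and D, lower in the hypothalamus in both. Socs3 (ENSMUSG00000053113.3, chr11:117966079-117970047, minus strand) had 1.70, 2.52 and 13.7 CPM in the hypothalamus and 2.31, 2.90 and 8.07 CPM in the PFC. It was lower in the hypothalamus in 25 of 30 mice, but the log2 difference of -0.26 (standard error 0.14, adjusted p = 0.0803 from edgeR) was not a call. Within conditions it was -0.76 in saline mice (adjusted p = 0.0178) and -0.49 in psilocybin-treated mice at 3 h, and -0.30 and 0.52 at 4 weeks, the last in the group that holds the library with 13.7 CPM. Over all conditions and without that library, hypothalamus psilocybin replicate 3 at 4 weeks, it was -0.41 with an adjusted p of 5.77e-04, and without hypothalamus psilocybin replicate 5 at 3 h -0.30 with an adjusted p of 0.0417. With the cage as a block it was -0.29 (adjusted p = 0.0403), and with the animal as a block -0.39 (adjusted p = 3.06e-04). It was also a call without the 4 libraries that stand apart (-0.36, adjusted p = 0.00262) and by the limma fit modeled on the study's methods (-0.43, adjusted p = 3.32e-04).

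Insr (ENSMUSG00000005534.10, chr8:3122061-3279617, minus strand), the insulin receptor, varied least of the members between the libraries of either region, relative to its mean (66.5 ± 6.47 CPM in the PFC and 68.2 ± 8.86 CPM in the hypothalamus, SD, n = 31 each). It had 29.6, 70.1 and 81.3 CPM in the hypothalamus and 53.9, 66.3 and 78.9 CPM in the PFC, and the ranges overlapped in nearly all libraries. The fold was 1.02 with a 95% interval from 0.96 to 1.09 (adjusted p = 0.493 from edgeR), and without the 4 libraries that stand apart the log2 difference was 0.10 (adjusted p = 0.00338).

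The Y receptors differed in direction. Npy2r (ENSMUSG00000028004.12, chr3:82538383-82548052, minus strand) had 14.6, 27.1 and 39.0 CPM in the hypothalamus and 1.27, 4.17 and 8.01 CPM in the PFC, without overlap, a fold of 6.53 (95% interval 5.61 to 7.59, adjusted p = 5.11e-31 from edgeR). Npy1r (ENSMUSG00000036437.6, chr8:66697192-66706792, plus strand) had 9.21, 19.2 and 27.4 CPM in the hypothalamus and 24.8, 38.2 and 46.9 CPM in the PFC. All 30 mice were lower in the hypothalamus, 30 of 31 hypothalamic libraries lay under the lowest PFC library, and the fold was 0.51 (95% interval 0.47 to 0.55, adjusted p = 2.57e-23 from edgeR). Npy5r (ENSMUSG00000044014.9, chr8:66679965-66688094, minus strand), which lies beside Npy1r on the opposite strand, did not follow it. It had 2.73, 5.34 and 8.71 CPM in the hypothalamus and 4.01, 5.67 and 8.40 CPM in the PFC, 15 of 30 mice were higher in each region, and the fold was 0.98 (95% interval 0.89 to 1.08, adjusted p = 0.735 from edgeR).

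Set side by side per kilobase of exon, the 10 genes ranked differently in the 2 regions. In the hypothalamus the mean levels ran from Npy2r (8.16 CPM per kilobase), Calcr (6.97), Npy1r (5.56) and Insr (4.96) through Glp1r (3.10), Npy5r (2.17), Ghsr (1.53) and Socs3 (1.03) down to Lepr (0.597) and Gipr (0.365). Neighbors in this order overlapped in range throughout, and the pair least apart was Npy1r and Insr, with Npy1r the higher in 21 of 31 libraries. In the PFC, Npy1r (10.9 CPM per kilobase), Insr (4.84) and Npy5r (2.22) led, Npy1r and Insr did not overlap with the gene after them, and Calcr (mean 0.0540) and Ghsr (0.0227) were lowest. These 2 could not be ordered, since Calcr exceeded Ghsr in 13 of 31 libraries and its mean rests on saline replicate 3 at 4 weeks (0.812). Lepr (1.26), Npy2r (1.25) and Socs3 could not be ordered either, since Lepr exceeded Npy2r in 17 of 31 libraries and Npy2r exceeded Socs3 in 16.

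The sequences before the starts of the receptor genes with the largest regional differences, and of Socs3 as a known target of Stat3, are shown as RefSeq gives them in GRCm38.p6, each 5′ to 3′ on the strand of its gene and ending at or before the transcription start. A promoter window was matched by symbol for 8 of 10 members, and Insr and Gipr are named only. The windows searched run from 250 bases before to 50 after the start. Capitals mark a STAT motif (TTCNNNGAA) or the core of a cAMP response element (TGACG, which is also part of the full element TGACGTCA), each searched on both strands. The printed stretches are chr6:3764715-3764963 (minus strand) for Calcr, chr3:27371101-27371350 (plus strand) for Ghsr, chr17:30901617-30901816 (plus strand) for Glp1r and chr11:117969367-117969616 (minus strand) for Socs3, whose RefSeq start lies 681 bases inside the gene as deposited.
Calcr: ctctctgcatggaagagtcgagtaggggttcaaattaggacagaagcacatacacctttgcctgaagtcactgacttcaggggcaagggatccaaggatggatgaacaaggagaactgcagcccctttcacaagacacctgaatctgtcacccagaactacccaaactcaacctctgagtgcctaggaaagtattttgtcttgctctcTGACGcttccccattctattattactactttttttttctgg
Ghsr: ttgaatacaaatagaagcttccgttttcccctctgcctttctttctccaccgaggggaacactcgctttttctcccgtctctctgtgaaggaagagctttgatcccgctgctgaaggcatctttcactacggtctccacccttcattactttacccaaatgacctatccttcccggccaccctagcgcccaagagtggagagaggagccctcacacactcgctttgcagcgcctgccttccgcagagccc
Glp1r: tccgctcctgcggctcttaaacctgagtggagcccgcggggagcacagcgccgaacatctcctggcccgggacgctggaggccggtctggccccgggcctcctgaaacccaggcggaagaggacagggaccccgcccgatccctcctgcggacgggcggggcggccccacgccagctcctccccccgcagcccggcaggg
Socs3: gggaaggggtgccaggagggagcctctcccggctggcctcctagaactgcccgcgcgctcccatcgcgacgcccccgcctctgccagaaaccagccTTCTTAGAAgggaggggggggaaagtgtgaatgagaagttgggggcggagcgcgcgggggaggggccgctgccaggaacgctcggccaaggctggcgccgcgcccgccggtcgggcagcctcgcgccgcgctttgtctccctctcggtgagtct
The STAT motif was in the Socs3 window and in no other member's, and 8.3% of 32851 windows in the table hold it. TGACG was in the Calcr window alone (20.8% of all windows), and neither the full element (1.79%) nor TATAAA (13.6%) was in any member's window. The 3 receptor genes with the largest regional differences differed in base composition, with 47.3% G and C and 4 CG pairs for Calcr, 56.3% and 16 for Ghsr, and 73.7% and 29 for Glp1r, against medians of 52.7% and 7 over all windows.

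The next question was whether psilocybin changed any of the 10 genes. None passed the test in any of the 4 comparisons of psilocybin with saline. In the PFC, 0 of 10 members were called at 3 h, with 0.0105% of all genes called, and 0 of 10 at 4 weeks, with 0% called. In the hypothalamus, 0 of 10 were called at 3 h and 0 of 10 at 4 weeks, with 0% of all genes called at each time. At an unadjusted p under 0.05, edgeR gave 1 member in the PFC at 3 h (Gipr), 1 in the PFC at 4 weeks (Calcr), 0 in the hypothalamus at 3 h and 1 in the hypothalamus at 4 weeks (Socs3), beside 1371, 456, 337 and 1823 of all genes. Other procedures called 2 of these, as given below for Gipr and Calcr, and called no member in the hypothalamus. The median log2 fold change of the members was 0.01, -0.00 and 0.02 in the first 3 of these comparisons and -0.07 in the hypothalamus at 4 weeks, against -0.01, -0.01, -0.00 and 0.01 over all genes tested.

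**Figure D2:**
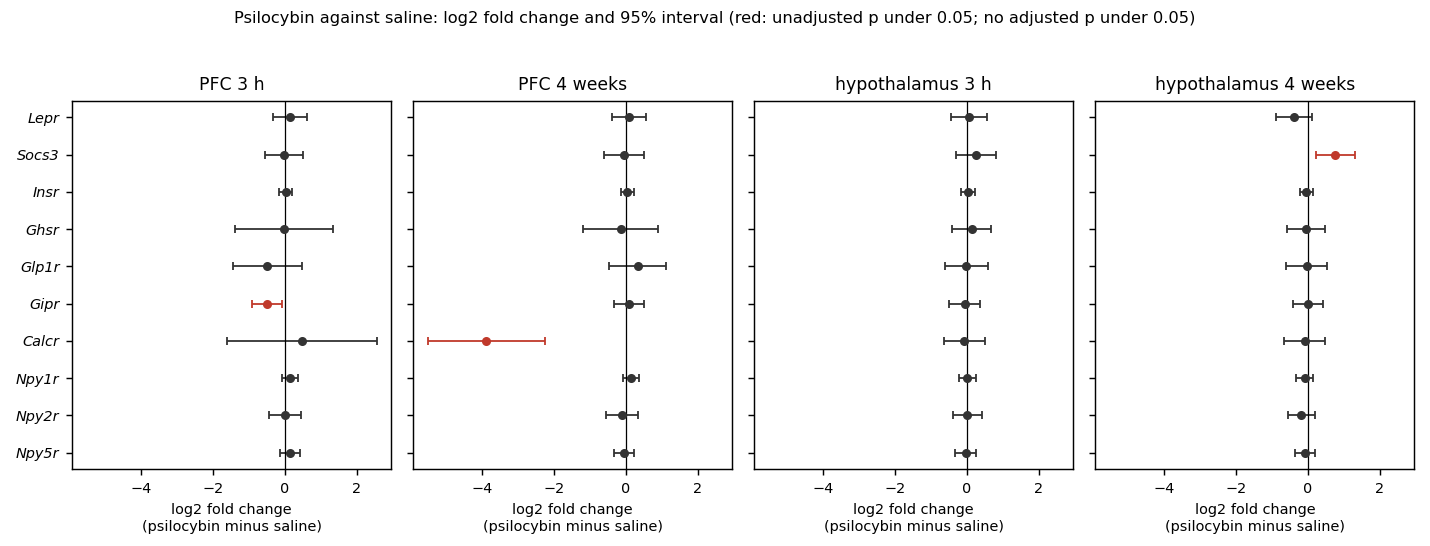
Log2 fold change of psilocybin over saline (x axis) for each gene (y axis) in the 4 comparisons, with points for the edgeR estimate and bars for its 95% interval. Red marks an unadjusted p under 0.05 (Gipr in the PFC at 3 h, Calcr in the PFC and Socs3 in the hypothalamus at 4 weeks), and no adjusted p was under 0.05. The long bars of Ghsr, Glp1r and Calcr in the PFC go with counts near 0.

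How small a change the data could have shown differed between members. The 95% interval of the fold lay between 0.5 and 2 for 7 of 10 members in the PFC at 3 h, 7 at 4 weeks, 10 in the hypothalamus at 3 h and 9 at 4 weeks. The interval was narrowest for Insr, from 0.896 to 1.15 in the PFC at 3 h and from 0.893 to 1.16 in the hypothalamus at 3 h. In the PFC, Ghsr was covered by 0 to 16 reads per library and Calcr, apart from 2 saline libraries at 4 weeks, by 0 to 10, so that small changes in either were not detectable at this depth.

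Gipr was the only member with an unadjusted p under 0.05 in the PFC at 3 h. Saline mice had 1.24 CPM at the lowest, 1.55 at the median and 2.55 at the highest (1.73 ± 0.52, SD, n = 8), and psilocybin-treated mice 0.586, 1.16 and 2.00 CPM (1.22 ± 0.49, SD, n = 8). Treated mice were the lower ones, with 5 of 8 under the lowest saline library, while the other 3 lay within the saline range. The fold was 0.71 with a 95% interval from 0.53 to 0.95, but the adjusted p was 0.653 from edgeR (unadjusted 0.0224). Within pool C the group means were 1.35 CPM after psilocybin and 2.03 after saline, and within pool D 1.09 and 1.42, so both pools had the same direction. A weighted limma fit modeled on the study's methods, run on the same 62 libraries, called Gipr (log2 fold change -0.70, adjusted p = 0.0483), in a comparison where it called 6.49% of all genes. The study also left out a library rich in wound healing and immune genes, which its methods do not identify. Without hypothalamus saline replicate 6 at 4 weeks, the library with the highest sum of such genes here, the same fit gave -0.70 with an adjusted p of 0.0454. Over 13 alternatives to the main setting the adjusted p ran from 0.0454 to 1. At 4 weeks the PFC values were 1.00, 2.32 and 3.08 CPM after saline and 1.46, 2.23 and 2.71 CPM after psilocybin (n = 8 and 7), and the groups overlapped fully.

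Calcr in the PFC at 4 weeks had the smallest unadjusted p of any member, 1.51e-05, and an adjusted p of 0.287 from edgeR with a log2 fold change of -3.88 (95% interval -5.52 to -2.24). The 8 saline libraries had 0, 0.125 and 3.18 CPM at the lowest, median and highest, and the 7 psilocybin libraries 0, 0 and 0.161 CPM. Only saline replicates 3 (222 reads, 3.18 CPM) and 6 (19 reads, 1.13 CPM) were high, and the other 6 saline libraries had 0 to 5 reads and overlapped with the 0 to 4 reads of the treated ones. Replicate 3 is the PFC library with the hypothalamic markers, and replicate 6 had the highest sum of 7 striatal markers, 1610 CPM against at most 714 CPM in the other PFC libraries. The part of either in this difference was not tested, but with the 4 libraries that stand apart left out, replicate 3 among them, the log2 fold change was -2.42 with an adjusted p of 0.939. DESeq2 called Calcr (adjusted p = 0.00279, with 0.1% of genes called), as did edgeR with no extraction pool (adjusted p = 0.0312, with 0.00527% called), and with the cage as a block the adjusted p was 1. In the hypothalamus, where Calcr is abundant, psilocybin and saline gave folds of 0.95 (95% interval 0.64 to 1.41) at 3 h and 0.94 (0.64 to 1.38) at 4 weeks.

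**Figure D3:**
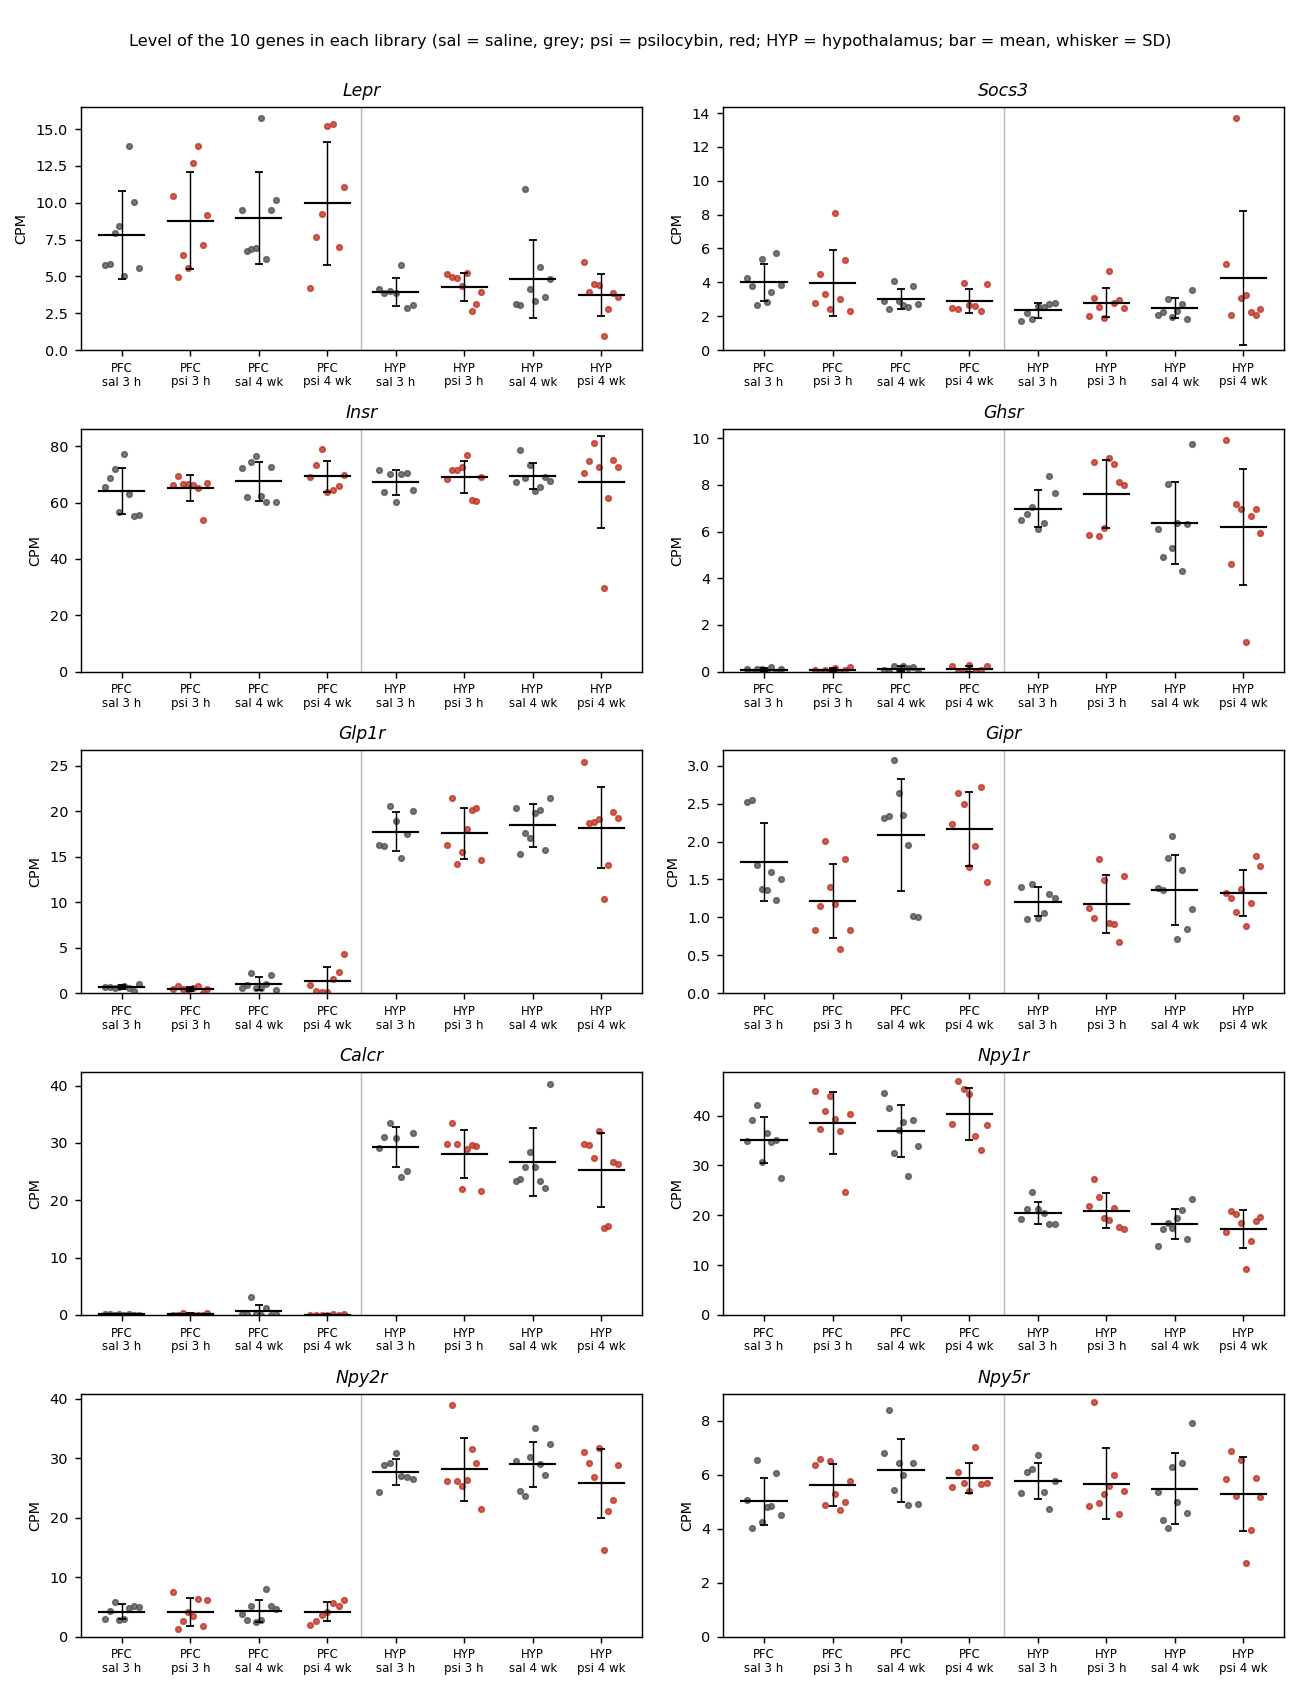
CPM (y axis) of each of the 10 genes in every library, in 1 panel per gene, with the 4 PFC groups left and the 4 hypothalamic groups right of the vertical line (grey saline, red psilocybin). Points are libraries, black bars the group means and whiskers the SD of 7 or 8 libraries. Treated and saline groups of a region overlap in every panel, and single libraries such as Socs3 at 13.7 CPM and Insr at 29.6 CPM stand apart.

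Socs3 in the hypothalamus at 4 weeks was the remaining member with an unadjusted p under 0.05. Saline mice had 1.84, 2.27 and 3.55 CPM (lowest, median, highest) and psilocybin-treated mice 2.08, 2.75 and 13.7 CPM. Psilocybin replicates 3 (13.7 CPM) and 1 (5.06 CPM) lay above all saline libraries, and the other 6 lay within the saline range. The fold was 1.69 with a 95% interval from 1.16 to 2.46 and an adjusted p of 0.448 from edgeR (unadjusted 0.00717). The difference lay in the cages of pool A, where the log2 fold change was 1.37, against -0.05 in pool B, and it was 0.27 without the 4 libraries that stand apart. At 3 h Socs3 had 1.70, 2.57 and 2.78 CPM after saline and 1.87, 2.66 and 4.66 CPM after psilocybin in the hypothalamus, a fold of 1.19 (95% interval 0.81 to 1.75), and 2.63, 3.83 and 5.75 against 2.33, 3.16 and 8.07 CPM in the PFC, a fold of 0.99 (0.68 to 1.42).

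Some of the highest Socs3 values at 3 h were in libraries that also held other acute response genes. PFC psilocybin replicate 5 had 8.07 CPM of Socs3 and 73.5 CPM summed over 10 wound healing and acute immune genes, PFC saline replicate 7 had 5.75 and 49.4 CPM, and the hypothalamus of the mouse of PFC psilocybin replicate 5 had 4.66 and 35.1 CPM. The median of that sum was 9.23 CPM in the PFC and 6.78 CPM in the hypothalamus. The 2 did not always go together, since PFC psilocybin replicate 7 at 3 h had 5.32 CPM of Socs3 with a sum of 10.4 CPM, hypothalamus saline replicate 6 at 4 weeks had a sum of 157 CPM with 2.74 CPM of Socs3, and psilocybin replicate 3 at 4 weeks had 13.7 CPM of Socs3 with a sum of 7.75 CPM. The part of these genes in the Socs3 values was not tested.

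**Figure D4:**
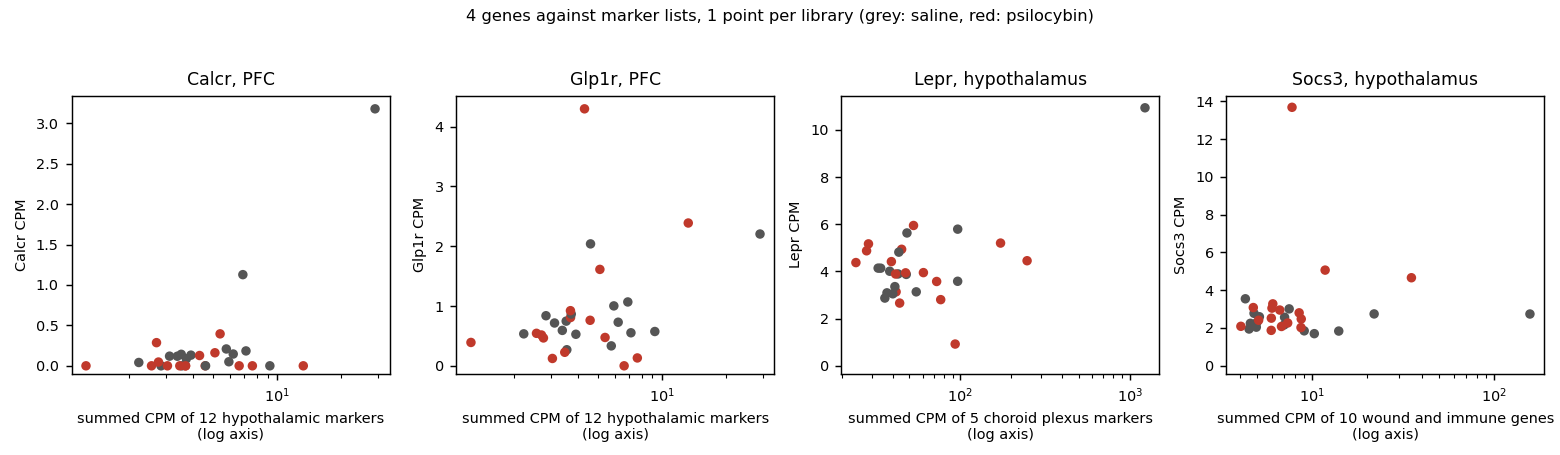
CPM of Calcr and Glp1r in PFC libraries against the summed CPM of 12 hypothalamic markers, of Lepr in hypothalamic libraries against 5 choroid plexus markers, and of Socs3 against 10 wound healing and acute immune genes (x axes logarithmic, y axes linear, grey saline and red psilocybin). In 3 of the panels a single library lies far out, with Calcr at 3.18, Lepr at 10.9 and Socs3 at 13.7 CPM. The first 2 carry the highest marker sums, 29.0 and 1232 CPM, and the Socs3 library does not.

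For the remaining receptors, treated and saline mice differed by less than their spread. Lepr in the hypothalamus had 2.87, 3.89 and 5.79 CPM after saline and 2.66, 4.62 and 5.20 CPM after psilocybin at 3 h, a fold of 1.05 (95% interval 0.74 to 1.48). At 4 weeks it had 3.05, 3.86 and 10.9 against 0.921, 3.91 and 5.95 CPM, a fold of 0.76 (0.54 to 1.07, adjusted p = 0.652 from edgeR), and both extremes came from libraries that stand apart. Without the 4 such libraries the log2 fold change was 0.02 (adjusted p = 1). In the PFC the folds of Lepr were 1.11 (0.80 to 1.53) at 3 h and 1.07 (0.76 to 1.48) at 4 weeks, and the groups overlapped over nearly their whole range.

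Ghsr in the hypothalamus had 6.12, 6.76 and 8.36 CPM after saline and 5.80, 8.06 and 9.17 CPM after psilocybin at 3 h. The highest values were in treated mice but the ranges overlapped, and the fold was 1.09 (95% interval 0.75 to 1.59). Glp1r in the hypothalamus had folds of 0.99 (0.66 to 1.49) at 3 h and 0.98 (0.66 to 1.46) at 4 weeks, from group means of 17.8 ± 2.15 (SD, n = 7) and 17.6 ± 2.81 CPM (SD, n = 8) at 3 h and 18.5 ± 2.32 and 18.2 ± 4.41 CPM (SD, n = 8 each) at 4 weeks. In the PFC, Glp1r rested on 0 to 154 reads, with folds of 0.72 (0.37 to 1.39) and 1.26 (0.73 to 2.19). Gipr in the hypothalamus had folds of 0.96 (95% interval 0.71 to 1.30) at 3 h and 1.00 (0.75 to 1.34) at 4 weeks.

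The Y receptors were close to level. The folds of Npy1r were 1.10 (95% interval 0.94 to 1.28) in the PFC at 3 h, 1.10 (0.94 to 1.29) at 4 weeks, 1.01 (0.86 to 1.19) in the hypothalamus at 3 h and 0.94 (0.80 to 1.10) at 4 weeks. Npy5r ranged from 0.94 to 1.11 and Npy2r from 0.88 to 1.01 over the same comparisons. PFC psilocybin replicate 7 at 3 h, with a quality weight of 0.12, had the lowest Npy1r (24.8 CPM, next 37.0) and Insr (53.9 CPM, next 65.3) of its group, and 0 reads of Glp1r.

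A response to psilocybin that differed between regions or times was tested as such. No member passed the test of the difference of the responses, PFC minus hypothalamus, at 3 h or at 4 weeks (0% of all genes called in each), or of 3 h minus 4 weeks in the PFC or the hypothalamus (0% called in each). At an unadjusted p under 0.05 there were 0 and 2 members in the first pair (Calcr and Socs3 at 4 weeks) and 2 and 0 in the second (Calcr and Gipr in the PFC). Of all 18971 genes tested, 528 and 1269 were under it in the first pair and 585 and 999 in the second. DESeq2 called the Calcr difference between regions at 4 weeks (adjusted p = 0.0269), where edgeR gave -3.79 on the log2 scale (adjusted p = 0.216), and -2.40 (adjusted p = 1) without the 4 libraries that stand apart. For Gipr in the PFC, the responses at 3 h and 4 weeks differed by -0.59 on the log2 scale (95% interval -1.18 to -0.00, unadjusted p = 0.0489, adjusted p = 1 from edgeR).

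Time since injection was then compared within each treatment, as 3 h minus 4 weeks. In the PFC of saline mice 1 of 10 members was called, Calcr, lower at 3 h, with 4.72% of all genes called. In the PFC of psilocybin-treated mice 2 of 10 were called, Gipr and Glp1r, both lower at 3 h, with 5.96% called. In the hypothalamus 0 of 10 were called in saline mice (0.685% of all genes) and 0 of 10 in psilocybin-treated mice (1.16%). There 0 and 2 members had an unadjusted p under 0.05, beside 1535 and 3302 of all 18971 genes. DESeq2 and the weighted limma fit called no member in the hypothalamus. These comparisons share their groups with those of psilocybin and saline, so the PFC values of Gipr above and below are the same libraries. The median log2 difference of the members was -0.22 and -0.09 in the PFC and -0.04 and 0.12 in the hypothalamus (saline, then psilocybin), against -0.00, 0.01, 0.00 and -0.03 over all genes.

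**Figure D5:**
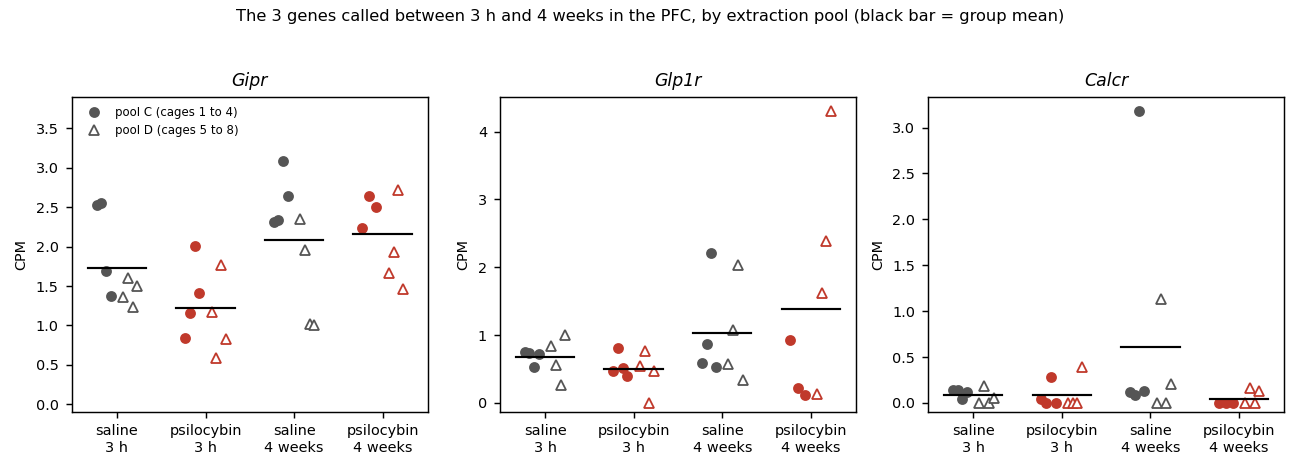
CPM (y axis) of Gipr, Glp1r and Calcr in the 4 PFC groups (grey saline, red psilocybin), with filled circles for pool C (cages 1 to 4), open triangles for pool D (cages 5 to 8) and black bars for group means. Psilocybin libraries at 3 h lie low for Gipr in both pools (means 1.35 and 1.09 CPM), the high Glp1r values at 4 weeks after psilocybin are in pool D (up to 4.30 CPM), and Calcr is near 0 apart from 2 saline libraries at 4 weeks.

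Gipr was the member whose time difference held best. Psilocybin-treated mice had 0.586, 1.16 and 2.00 CPM at 3 h and 1.46, 2.23 and 2.71 CPM at 4 weeks, with 6 of 8 of the early libraries under the lowest late one and 4 of 7 late ones above the highest early one. The fold was 0.55 (95% interval 0.41 to 0.74, adjusted p = 0.00834 from edgeR). It remained a call in each of 15 fits that left out 1 library (log2 difference -1.02 to -0.74) and in 11 of 13 other alternatives, the exceptions being the fits within pools A and C (-0.86, adjusted p = 0.068) and B and D (-0.85, adjusted p = 0.328), which have fewer libraries. With the cage as a block the adjusted p was 0.00746. In saline mice Gipr also had a lower mean at 3 h (1.73 against 2.09 CPM), with a fold of 0.83 (0.63 to 1.10, adjusted p = 0.521), and the difference between the treatments is the test given above, which did not pass.

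Glp1r rested on few reads. In the PFC of psilocybin-treated mice it had 0, 0.495 and 0.808 CPM at 3 h and 0.123, 0.922 and 4.30 CPM at 4 weeks, with 7 of 8 early libraries within the late range. Replicates 6, 7 and 8 at 4 weeks (1.61, 2.39 and 4.30 CPM), all of pool D, were high. The log2 difference was -1.51 (standard error 0.44, adjusted p = 0.0290 from edgeR), and it lost the call without psilocybin replicates 5, 7 or 8 at 3 h, where it was -1.51, -1.31 and -1.47 (adjusted p = 0.0521, 0.0566 and 0.0550), or without replicates 7 or 8 at 4 weeks (-1.37, adjusted p = 0.0699, and -0.86, adjusted p = 0.257). With the cage as a block it was -1.45 (adjusted p = 0.0520), and within pools A and C the sign turned (0.49, adjusted p = 0.665). The call was also lost by the limma fit modeled on the study's methods (-0.80, adjusted p = 0.314), with no filter on low counts (-1.53, adjusted p = 0.0895) and within pools B and D (-2.22, adjusted p = 0.0788). Replicate 7 had 13.3 CPM of the hypothalamic markers and replicate 8 had 4.30 CPM, against a PFC median of 3.91 CPM, and the part of such RNA in these values was not tested.

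Calcr in saline mice had 0, 0.0847 and 0.184 CPM at 3 h and 0, 0.125 and 3.18 CPM at 4 weeks, and all 8 early libraries lay within the late range. The log2 difference of -3.16 (standard error 0.68, adjusted p = 0.00215 from edgeR) rested on saline replicate 3 at 4 weeks, without which it was -1.31 with an adjusted p of 0.302 (0.254 without the 4 libraries that stand apart). The call was also lost with that library present, by the limma fit modeled on the study's methods (-0.66, adjusted p = 0.768), and within pools B and D, which do not hold it (-2.37, adjusted p = 0.611). Replicate 3 alone among 31 PFC libraries had all 12 hypothalamic markers above 0, with 9.29 CPM of Trh, 7.63 CPM of Oxt and 4.24 CPM of Gal. The hypothalamic marker sum had medians of 3.54 CPM in the saline group at 3 h (2.22 to 7.12) and 5.17 CPM at 4 weeks (3.38 to 29.0). Tested as a difference of the saline time effects between the regions, PFC minus hypothalamus, Calcr had -3.30 on the log2 scale (standard error 0.74, adjusted p = 0.0767 from edgeR). In that test 0 of 10 members were called, with 0.0369% of all genes called. An unadjusted p under 0.05 was found for 1 member, beside 1107 of all genes. The Calcr difference became a call without hypothalamus psilocybin replicate 5 at 4 weeks (adjusted p = 0.0463) and in 6 of 31 fits that left out 1 library of the comparison. It was -1.44 without PFC saline replicate 3 at 4 weeks and -1.43 (adjusted p = 0.711) without the 4 libraries that stand apart.

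Among the other members, Npy5r in the PFC of saline mice had 4.01, 4.83 and 6.54 CPM at 3 h and 4.87, 6.21 and 8.40 CPM at 4 weeks, a fold of 0.82 (95% interval 0.68 to 1.00, adjusted p = 0.273 from edgeR). In the hypothalamus of psilocybin-treated mice, Npy1r had 17.1, 20.4 and 27.4 CPM at 3 h and 9.21, 18.6 and 20.8 CPM at 4 weeks, a fold of 1.21 (1.03 to 1.42, adjusted p = 0.200), with the late low in the library led by Oxt and Avp. Without the 4 libraries that stand apart, the log2 difference of Npy1r was 0.19 (adjusted p = 0.599), against 0.28 with them. Socs3 in the same mice had 1.87, 2.66 and 4.66 CPM at 3 h and 2.08, 2.75 and 13.7 CPM at 4 weeks, a fold of 0.68 (0.46 to 0.98, adjusted p = 0.268), and its log2 difference of -0.56 was -0.03 without those 4 libraries. None of the 3 passed the test, and their groups overlapped. Lepr, Insr, Ghsr and Npy2r had no unadjusted p under 0.05 in any of the 4 time comparisons. Their log2 differences in the PFC were -0.18, -0.07, -0.67 and -0.04 in saline mice and -0.13, -0.09, -0.56 and 0.07 in psilocybin-treated mice, and in the hypothalamus -0.22, -0.03, 0.12 and -0.07, and 0.24, 0.04, 0.31 and 0.13.

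The wider pathway was followed with a list of 53 further genes of these hormone systems, of which 40 could be tested. Of the peptides themselves, 3 of 12 had enough counts. Most of them are made in gut, pancreas or fat. Psilocybin against saline called 0 of 40 in each of the 4 comparisons by edgeR. Beside 1371, 456, 337 and 1823 of all genes, 3, 2, 1 and 3 genes of the list had an unadjusted p under 0.05 (PFC at 3 h and 4 weeks, then hypothalamus). The smallest p-values were those of Stat5a in the PFC at 3 h (log2 fold change 0.46, adjusted p = 0.557), Cckar in the PFC at 4 weeks (-3.43, adjusted p = 0.491, and -1.98, adjusted p = 1, without PFC saline replicate 3), Cckbr in the hypothalamus at 3 h (-0.24, adjusted p = 1) and Ramp2 in the hypothalamus at 4 weeks (0.41, adjusted p = 0.448). Tests of the difference between responses called 0 of 40 as well.

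Between the regions 36 of 40 were called, against 76.2% of all genes, 19 higher and 17 lower in the hypothalamus, with no direction by class, since 6 of 12 genes of insulin signaling were higher and 5 lower, and 5 of 12 of leptin and cytokine signaling were higher and 6 lower. Among the higher were Grb10, an adaptor that binds the insulin receptor (log2 difference 2.11), Mrap2, an accessory protein of the ghrelin and melanocortin receptors (2.79), Stat5b (1.09) and Cckar, the cholecystokinin receptor of satiety (6.77). Among the lower were Cckbr (-3.12), the kinase Akt2 (-1.51), Npy (-2.22) and Ptpn1, a phosphatase that dephosphorylates the insulin receptor and Jak2 (-0.54). All 8 had adjusted p-values of 1.5e-21 or less from edgeR. The ligand Npy, at 84.8 CPM in the PFC and 18.9 CPM in the hypothalamus, thus stood in opposite order to its receptor Npy2r. Of the other Y receptors, Npy1r was lower in the hypothalamus as Npy was (log2 difference -0.97), and Npy5r was nearly level (-0.03).

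Time since injection was also compared for the pathway list. In the PFC, Irs2, the adaptor that carries the insulin signal, was higher at 3 h in saline mice (68.0 ± 10.8 against 39.8 ± 5.42 CPM, SD, n = 8 each, log2 difference 0.77, adjusted p = 2.75e-07 from edgeR) and in psilocybin-treated mice (0.70, adjusted p = 6.8e-06), and the 3 h and 4-week saline libraries did not overlap. Ptpn1 (0.48 and 0.44) and the adiponectin receptor gene Adipor2 (0.42 and 0.45) were higher at 3 h in both treatments, and Ramp2 (0.75), which turns the calcitonin receptor-like receptor into a receptor for adrenomedullin, was called in psilocybin-treated mice, as was Adipor1 (0.20), named here after its values were seen. In saline mice 3 of 40 were higher and 2 lower (4.72% of all genes called), Irs4 (-2.66) and Cckar (-3.14), and both of these lay highest in PFC saline replicate 3 at 4 weeks (15.4 and 0.931 CPM), without which neither was called (0.30 and -1.30, adjusted p = 0.81 and 0.372). In psilocybin-treated mice 5 were higher and 0 lower (5.96% of all genes). Without the 4 libraries that stand apart, 5 and 7 of 41 were higher in the PFC of saline and psilocybin-treated mice and 0 lower. In the hypothalamus, Adipor2 was higher at 3 h in both treatments (0.60 and 0.63), with Cckbr (0.54) in saline mice and Ptpn11 (0.25) in psilocybin-treated mice, 2 of 40 higher and 0 lower in each (0.685% and 1.16% of all genes). Without the 4 libraries these were 2 and 1 of 41.

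Over the 31 hypothalamic libraries, each member was set beside the 15476 genes with a mean of at least 1 CPM, as a Pearson correlation r of log2 CPM after removal of group and pool means. Calcr went most closely with AW551984 (r = 0.91), Ptpro (0.89) and Pgr15l (0.89), and r stayed between 0.85 and 0.87 without the 2 libraries farthest out. Npy5r also had Ptpro (0.85) and AW551984 (0.84) at the top, and Npy1r had Zc3hav1l (0.86) and, after S100pbp, Ptpro (0.83). Npy2r was nearest to Gpr101 (0.88), Glp1r to the glial glutamate transporter gene Slc1a3 (0.87), Ghsr to Slit2 (0.92), Insr to Rprd2 (0.96), Lepr to Slc25a30 (0.83) and Socs3 to Sult1a1 (0.86). Without the 2 farthest libraries, these were 0.80, 0.80, 0.74, 0.81, 0.67 and 0.72. Gipr had no close partner, with r = 0.66 for Tcf7 at the top. All points share the dissection of a library, so these values describe the libraries and carry no test.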

How the data were processed

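RNA of prefrontal cortex and whole hypothalamus was sequenced from poly(A)-selected, stranded, paired-end libraries. The authors deposited raw counts per gene, 1 column per library. Per the labels' processing notes, reads were handled with bcl2fastq 2.20.0, STAR 2.7.2b and featureCounts 1.6.2 against GRCm38. Per the paper, a read was counted only if its 2 ends mapped to 1 strand. Whether the counting was specific to the strand of the gene was not given in the sources used here. No other annotated gene shared exonic bases with a member. Gene counts do not separate isoforms.

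Libraries with fewer than 1000000 counts were left out (2 of 64). In R 4.3.3, edgeR 4.0.16 was fitted to all 62 remaining libraries after filterByExpr (minimum count 10) and TMM scaling, by robust quasi-likelihood with a mean for each of 8 groups and a term for extraction pool within region. P-values were adjusted by the Benjamini-Hochberg method over 18971 genes with a threshold of 0.05, and intervals are at 95%. Alternatives were other size factors, no filter, DESeq2 1.42.0, a fit modeled on the study's procedure (limma 3.58.1 with voom, quality weights and the animal as block, on the 62 libraries), no pool term, the cage or the animal as block, other sets of libraries, only the groups compared, and leaving out each library. The study also left out a library rich in wound healing and immune genes, which its methods do not identify. The fits without 4 libraries that stand apart, within pools, by the limma procedure without the library highest in such genes, and of the pathway list without PFC saline replicate 3 at 4 weeks were chosen after seeing the data. The edgeR fit was tested on simulated data for psilocybin against saline in the hypothalamus at 3 h.

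The replicate number is the cage. With group means removed, same-cage libraries correlated with a mean of 0.0748 in the PFC and 0.0773 in the hypothalamus, and with pool also removed at -0.0449 and -0.0248. PFC and hypothalamus samples of 1 condition and cage came from the same mouse. No 2 libraries of a group agreed within sampling noise (210 pairs, lowest chi-square per degree of freedom 3.85). The members, marker lists and pathway list were chosen with earlier results of these data known. All 10 members were fitted in every comparison. In the tests of differences between responses, only those with an unadjusted p under 0.05 are named. Of the pathway list, the called genes with the smallest p are named, at most 4 in each direction, or the 1 with the smallest p where none was called. For each member, the 3 genes with the highest correlation over hypothalamic libraries were computed.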

Additional observations from a re-analysis of the deposited data

Results flagged for a closer look

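In 10 of 80 sets of libraries (a member in a group), 1 library lay so far from the others that its gap to the nearest, as a share of the whole range, exceeded Dixon's 95% critical value (0.526 for 8 libraries, 0.568 for 7). Chance gives about 1 in 20, and 6 of the 10 were in the hypothalamus. In the PFC these were Lepr in saline replicate 5 at 4 weeks (15.8 CPM, next 10.2, share 0.583), Calcr in saline replicate 3 at 4 weeks (3.18, next 1.13, share 0.645), and psilocybin replicate 7 at 3 h for both Insr (53.9, next 65.3, share 0.732) and Npy1r (24.8, next 37.0, share 0.603). In the hypothalamus at 4 weeks they were Lepr in saline replicate 3 (10.9 CPM, next 5.63, share 0.673), Calcr in saline replicate 8 (40.3, next 28.5, share 0.653), Insr in psilocybin replicate 5 (29.6, next 61.7, share 0.621) and Socs3 in psilocybin replicate 3 (13.7, next 5.06, share 0.743). In the hypothalamus at 3 h they were Socs3 in psilocybin replicate 5 (4.66, next 3.05, share 0.577) and Npy5r in psilocybin replicate 2 (8.71, next 5.97, share 0.658).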

How the results depend on the processing

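Of 523 recounts of the members called in a comparison, all but 30 stayed within 1.5 times the main count, 329 of 341 that left out 1 library and 164 of 182 others. For 3 h against 4 weeks in the PFC of psilocybin-treated mice the count of 2 fell to 1 without a filter on low counts, under the study's procedure, with the cage as replicate block and with only the groups compared, to 0 within pools A and C or B and D, and lay between 1 and 2 with 1 library left out. The limma fit modeled on the study's procedure gave the same counts with and without the library highest in wound genes in each comparison named here. With only the groups compared, Glp1r in psilocybin-treated and Calcr in saline mice did not pass the filter and were not tested. The Glp1r difference in the PFC of psilocybin-treated mice turned to 0.49 within pools A and C. For saline mice the count of 1 became 0 under the study's procedure, without the 4 libraries that stand apart, within pools B and D and with only the groups compared, and was 0 to 1 with 1 library left out. Psilocybin against saline gave 1 member in place of 0 in the PFC at 3 h under the study's procedure, and at 4 weeks under DESeq2 and without the pool term. The difference of responses between regions at 4 weeks gave 1 under DESeq2, and that of saline time effects gave 1 without the outlying hypothalamic library and 0 to 1 with 1 library left out. The cage block changed no other call than those of Glp1r and Socs3 given above. Of 4610 refits of members not called, 443 had the opposite sign. The cause of these changes was not tested. Over all genes, psilocybin against saline called 2 in the PFC at 3 h, against 1232 under the study's procedure (1221 without the library highest in wound genes), 9 under DESeq2, 6 without the outlying hypothalamic library and 0 to 1 in several others, and 0 at 4 weeks, against 19 in the PFC and 13 in the hypothalamus under DESeq2. Time effects ranged over the alternatives from 44 to 1571 genes (main 896) in the PFC and 12 to 1375 (main 130) in the hypothalamus of saline mice, and from 93 to 3614 (main 1131) and 19 to 628 (main 220) in psilocybin-treated mice. Depth limits Ghsr and Calcr in the PFC, where many libraries held no read.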

Other observations

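Some pairs of members also varied together between hypothalamic libraries of the same group and pool, and others did not. Over 31 libraries, r was highest for Glp1r and Npy2r, at 0.81 (0.73 without psilocybin replicate 5 at 4 weeks). Npy2r and Npy5r had 0.79 (0.70) and Glp1r and Calcr 0.76 (0.70), while Insr and Ghsr fell from 0.75 to 0.27. The lowest were Gipr and Socs3 at -0.28 (-0.30) and Gipr and Npy2r at -0.23 (-0.43). Pairs of other genes were not computed for comparison. These points share a dissection each, and no test was made.

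In 30 mice with both regions, a member's levels in the PFC and in the hypothalamus were only weakly correlated. After removal of group and pool means, r was 0.30 for Socs3, 0.15 for Gipr, 0.07 for Insr, -0.22 for Npy5r, -0.26 for Npy1r, -0.29 for Lepr and -0.35 for Npy2r, against a median of 0.03 and quartiles of -0.10 and 0.16 over 14609 genes. Ghsr, Glp1r and Calcr were too low in the PFC to enter.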
